A study of Rattus norvegicus with 6 samples.

Results

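Hspa5, Atf4 and Ddit3, a set of endoplasmic reticulum (ER) stress genes, were examined in rat tenocytes with and without IL−1β. The rule that selects them is a list of identifiers and uses no measured value, although the list was drawn up with earlier results of these data known. All 3 were among the 19133 genes of the deposited table, and all 3 passed the filter on low values that left 12408 genes for testing. With IL−1β, Hspa5 was 1.22-fold higher and Atf4 was 0.786-fold of the control level, while no difference was detected for Ddit3. None of the 3 changed by 2-fold. In each control library Atf4 had a higher level per length than Hspa5, and in each IL−1β library this order was the opposite. Without division by gene length, Hspa5 had more reads than Atf4 in every library.

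Tenocytes, the resident fibroblast-like cells of tendon, were isolated from the Achilles tendons of Sprague–Dawley rats. The control group (n = 3 libraries) received complete medium alone. The IL−1β group (n = 3 libraries) was given the proinflammatory cytokine IL−1β in the same medium, at 50 ng/mL and for 24 h. The labels name no transgene or deletion in either group. The age of the donor rats, the number of animals behind each library and any pooling are not given in the sources used here. The study's methods describe all of its data as coming from independent experiments, and the labels do not say what separates the 3 libraries of a group (animal, culture or extraction). In bulk libraries, a change in the number of cells that express a gene and a change in RNA per cell cannot be told apart.

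The ER folds secreted and membrane proteins, and matrix-producing cells such as tenocytes pass large amounts of collagen through it. When unfolded proteins accumulate there, sensors in the ER membrane start the unfolded protein response. Hspa5 encodes BiP (GRP78), the main chaperone of the ER lumen and a standard marker of this response, which the factors ATF6 and XBP1 raise through ER stress response elements. Atf4 encodes a transcription factor whose protein level is controlled largely by translation, so its mRNA need not follow its activity. Ddit3 encodes CHOP, a transcription factor induced downstream of ATF4 and linked to cell death under lasting ER stress.

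The promoters of Hspa5 and Ddit3 are shown because Hspa5 carries an exact match to the ER stress response element and Ddit3 a match with 1 mismatch. The 250 bases before each start site were taken from RefSeq (GRCr8 build), on the plus strand at chr3:38452766-38453015 for Hspa5 and at chr7:65001445-65001694 for Ddit3. The deposited table names no genome build, and these positions belong to the RefSeq sequences alone. Capitals mark exact matches to 5 motifs, searched on both strands. The Ddit3 site with 1 mismatch is therefore not marked, apart from the CCAAT box within it.

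Hspa5: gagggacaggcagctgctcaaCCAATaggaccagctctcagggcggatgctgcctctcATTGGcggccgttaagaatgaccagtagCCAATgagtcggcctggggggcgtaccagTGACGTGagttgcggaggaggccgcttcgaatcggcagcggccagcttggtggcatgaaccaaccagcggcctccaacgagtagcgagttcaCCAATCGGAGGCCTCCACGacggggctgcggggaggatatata
Ddit3: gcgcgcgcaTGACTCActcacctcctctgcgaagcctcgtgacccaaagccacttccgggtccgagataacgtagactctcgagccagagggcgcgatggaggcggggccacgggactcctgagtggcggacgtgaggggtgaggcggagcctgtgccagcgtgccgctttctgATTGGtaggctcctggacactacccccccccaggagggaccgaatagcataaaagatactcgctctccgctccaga

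The ER stress response element (CCAAT, any 9 bases, then CCACG) matched once in Hspa5, from 43 to 25 bases before the start, and in 0.0657% of the 33469 rat promoters of this length (22 promoters). With 1 mismatch allowed in its 10 fixed letters, a search added after the exact matches were seen, Ddit3 also held a site, on the minus strand from 90 to 72 bases before the start and around its CCAAT box, Atf4 held none, and 1.27% of all promoters held at least 1. The core of the unfolded protein response element (TGACGTG) matched once in Hspa5 and in 1.54% of all promoters. CCAAT boxes (CCAAT, 4 matches, 1 of them inside the ER stress response element) were also present in Hspa5, against 34.0% of all promoters with at least 1 match. In Ddit3, the window held 1 AP-1 site (TGACTCA, in 4.05% of all promoters) and 1 CCAAT box. The C/EBP-ATF composite element (TGATGNAAT, in 0.944% of all promoters) matched in none of the windows of the 3 genes. In the Atf4 window (chr7:113684431-113684680, plus strand) none of the 5 motifs matched. Bases outside these windows were not searched, so the absence of a match does not show that a gene lacks the motif further upstream. A match is a description of these letters and not a measured binding site.

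The values are FPKM (fragments divided by the length of the gene in kilobases and by the total of the library), computed by the authors for each library without pooling. They are divided by gene length, so that levels of different genes can be set side by side. The low FPKM values step in whole multiples of 1 read, from which whole reads were recovered for 19131 of the 19133 genes. The recovered reads numbered between 36502794 and 43097138 per library. IL−1β library 1 stood apart from its replicates, with a chi-square per gene of 26.7 and 27.0 against libraries 2 and 3, while these 2 differed from each other by 9.86 and the control libraries by 10.2 to 14.2 (1 would be counting noise alone, 10916 genes with at least 50 reads in each library). Results without this library are therefore given beside each gene.

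For Hspa5 (ENSRNOG00000018294), control libraries 1, 2 and 3 had deposited levels of 427, 435 and 436 FPKM, and the IL−1β libraries had, in the same order, 560.3, 553 and 537 FPKM. Each IL−1β value exceeded each control value, and the gap between the groups was wider than the range within either. The mean was 550.0 ± 11.9 FPKM with IL−1β, against 433 ± 5.08 FPKM in the controls (SD, 3 libraries each). These values rested on 40817 to 61212 reads per library, where counting error alone is at most 0.495%. The coefficient of variation of the deposited values was 1.17% among the controls and 2.17% among the libraries with IL−1β. After scaling between libraries, as used for the test, it was 0.182%, below the counting error, and 3.49%.

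The groups were compared with limma over all 12408 tested genes, on log2 of the FPKM values, divided by size factors of 0.969 to 1.03 (median of ratios) and with a pseudocount of 0.1. The size factors of all 3 control libraries were below those of all 3 IL−1β libraries, so the scaling moved log2 fold changes downward, and their median over all tested genes was 0.058 on the deposited values and 0.00066 after scaling. Hspa5 rose with IL−1β by a log2 fold change of 0.29 (standard error 0.04, 95% confidence interval 0.19 to 0.39, limma adjusted p = 0.0016 with Benjamini-Hochberg adjustment), which is 1.22-fold (1.14 to 1.31). Without IL−1β library 1, the log2 fold change was 0.26. On the deposited values without scaling, it was 0.35. Among all tested genes, 20.3% had a higher log2 fold change than Hspa5.

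**Figure D1:**
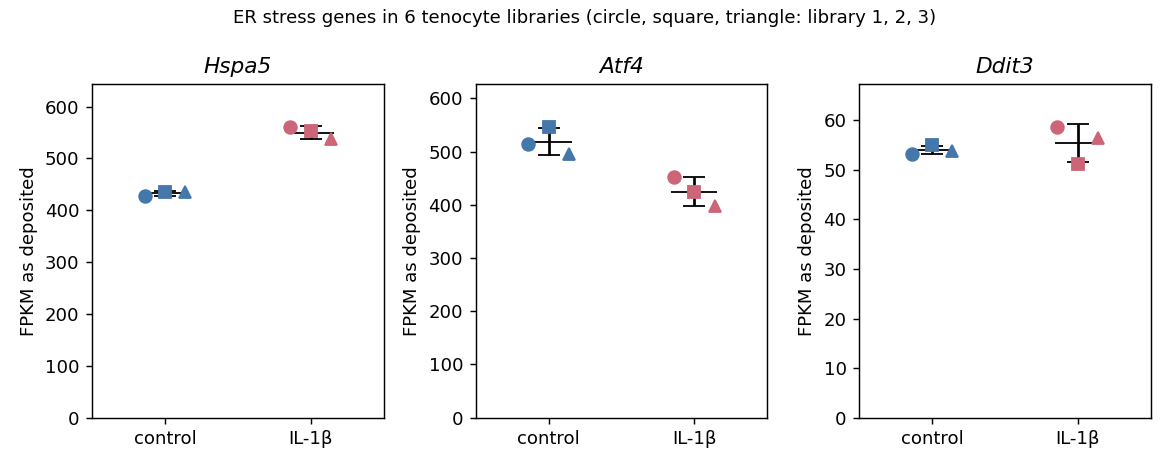
Deposited level (FPKM, axis from 0) of Hspa5, Atf4 and Ddit3 in each of the 3 control and 3 IL−1β libraries, with the mean and SD of each group. Hspa5 lies at 427 to 436 in the control and 537 to 560.3 in the IL−1β group, and Atf4 at 496 to 546 and 397 to 453. Ddit3 lies at 53.2 to 55.0 in the control and 51.1 to 58.6 in the IL−1β group, so its groups overlap.

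For Atf4 (ENSRNOG00000017801), control libraries 1, 2 and 3 had deposited levels of 514, 546 and 496 FPKM, and the IL−1β libraries had, in the same order, 453, 425 and 397 FPKM. Each IL−1β value was lower than each control value, with a spread within the groups that was wider than that of Hspa5. The mean was 425 ± 27.9 FPKM with IL−1β, against 519 ± 25.1 FPKM in the controls (SD, 3 libraries each). The reads per library numbered 28365 to 40273, with a counting error of at most 0.594%, whereas the coefficients of variation were 4.84% and 6.57% (4.99% and 7.95% after scaling).

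Atf4 fell with IL−1β by a log2 fold change of −0.35 (standard error 0.07, 95% confidence interval −0.51 to −0.18, limma adjusted p = 0.0065 with Benjamini-Hochberg adjustment). This is 0.786-fold of the control level (0.703 to 0.880). Without IL−1β library 1, which had the highest Atf4 value of its group, the log2 fold change was −0.40. On the deposited values without scaling, it was −0.29. Among all tested genes, 15.0% had a lower log2 fold change than Atf4. The protein and the translation of ATF4 were not measured in these libraries.

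For Ddit3 (ENSRNOG00000006789), control libraries 1, 2 and 3 had deposited levels of 53.2, 55.0 and 53.9 FPKM, and the IL−1β libraries had, in the same order, 58.6, 51.1 and 56.3 FPKM. The groups overlapped, with the lowest of the 6 values in IL−1β library 2 and the highest in IL−1β library 1. The mean was 55.4 ± 3.82 FPKM with IL−1β, against 54.0 ± 0.888 FPKM in the controls (SD, 3 libraries each). Ddit3 had far fewer reads than the other members, 1862 to 2085 per library, with a counting error of at most 2.32%. The coefficient of variation was 1.64% among the controls, below this counting error, and 6.90% among the libraries with IL−1β (1.26% and 7.80% after scaling).

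The log2 fold change of Ddit3 was −0.02 (standard error 0.06, 95% confidence interval −0.17 to 0.12, limma adjusted p = 0.78 with Benjamini-Hochberg adjustment), and its sign depended on the scaling, with 0.03 on the deposited values. In fold terms the interval ran from 0.890 to 1.085 and thus did not include a 2-fold change in either direction. Without IL−1β library 1 the log2 fold change was −0.08, and without IL−1β library 2 it was 0.03. In RefSeq (GRCr8), Ddit3 overlaps 2 other genes, Mars1 and LOC134479709, and Hspa5 and Atf4 overlap none. This overlap is that of whole gene spans, and exons and strands were not compared. The strand setting of the counting is not given in the sources used here. Whether reads of an overlapping gene affect the Ddit3 value was not tested.

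Of all tested genes, 38.4% passed an adjusted p under 0.05 in limma, 19.3% with a higher and 19.1% with a lower level with IL−1β. Hspa5 was among the higher and Atf4 among the lower ones, which makes 2 of the 3 genes past this threshold, and so small a number of genes cannot be read against that share. The share of higher genes among those past this threshold was 50.3%, and it was 61.1% on the deposited values, 61.3% with limma-voom on the recovered reads and 41.1% with quantile normalization. The calls of Hspa5 and Atf4 and their directions held under all of these scalings. With the additional condition of an absolute log2 fold change over 1, 8.69% of all tested genes (5.37% higher and 3.32% lower with IL−1β) but 0 of the 3 ER stress genes were called in limma. At an unadjusted p under 0.05 there were 2 of the 3 in limma, against 47.1% of all tested genes, and limma-voom likewise gave 0 past both thresholds and 2 at an unadjusted p under 0.05.

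The groups did not overlap in 51.4% of all tested genes, with the IL−1β libraries all above in 25.5%, as for Hspa5, and all below in 25.9%, as for Atf4. In absolute size, the log2 fold change of Hspa5 was larger than that of 61.5% of all tested genes, that of Atf4 larger than that of 67.5%, and that of Ddit3 larger than that of 7.19%.

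**Figure D2:**
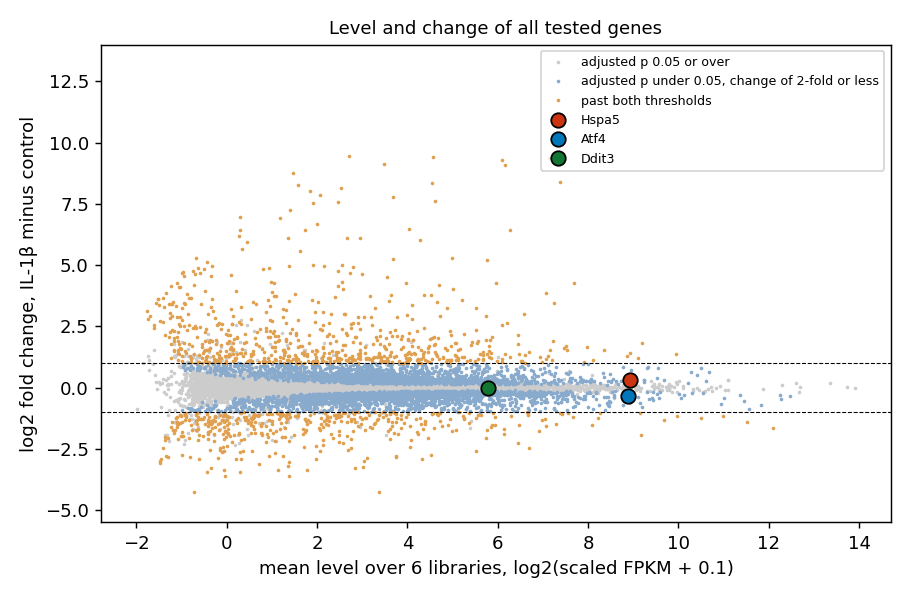
Mean level over the 6 libraries (x axis, log2 of scaled FPKM + 0.1) against the log2 fold change with IL−1β (y axis) for the 12408 tested genes, coloured by their call in limma, with dashed lines at a 2-fold change. Hspa5 at 0.29 and Atf4 at −0.35 lie close together at a high level and on opposite sides of 0, and Ddit3 at −0.02 lies at a lower level, all 3 between the dashed lines.

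The levels per length placed Hspa5 and Atf4 among the most abundant transcripts. In the control group Atf4 ranked 112 and Hspa5 ranked 143 of the 12408 tested genes by mean log2 level. In the IL−1β group Hspa5 ranked 120 and Atf4 ranked 163. Ddit3 ranked 1306 among the controls and 1363 with IL−1β, which placed it above 89.5% and 89.0% of the other tested genes.

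A ratio of 2 genes in the same library does not depend on the scaling between libraries. The ratio of Atf4 to Hspa5 in FPKM was 1.20, 1.25 and 1.14 in control libraries 1, 2 and 3, and with IL−1β it was 0.808, 0.768 and 0.740 in the same order. It was thus above 1 in 3 of 3 control libraries and below 1 in 3 of 3 IL−1β libraries. On the log2 scale it differed by −0.63 between the groups, from 0.26 ± 0.07 to −0.37 ± 0.06 (SD, n = 3 each, two-sided exact permutation test, p = 0.10). This is the smallest p that 3 libraries against 3 allow, so no such ratio could reach 0.05. The crossing of 1 depends on gene length, which the recovery of reads put at 2562 bases for Hspa5 and 1940 for Atf4. In recovered reads, Hspa5 was above Atf4 in every library, for example 42280 against 38557 in control library 1.

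The Ddit3 transcript was the least abundant of the 3 per length in every library. The ratio of Ddit3 to Hspa5 was 0.125, 0.127 and 0.124 in control libraries 1, 2 and 3, and with IL−1β it was 0.105, 0.0927 and 0.105 in the same order. Every IL−1β library lay below every control library, with a log2 difference of −0.31 (−3.0 ± 0.02 and −3.31 ± 0.10, SD, n = 3 each, exact permutation p = 0.10). The ratio of Ddit3 to Atf4 was 0.104, 0.101 and 0.109 in control libraries 1, 2 and 3, and with IL−1β it was 0.130, 0.121 and 0.142 in the same order. Here every IL−1β library lay above every control library, with a log2 difference of 0.32 (−3.26 ± 0.05 and −2.94 ± 0.12, SD, n = 3 each, exact permutation p = 0.10). Over the 3 ratios compared, the Benjamini-Hochberg adjusted p was 0.10 for each. Each ratio is a difference between log2 values of the same 3 genes, so the ratios are not evidence separate from the single genes. How often the ratios of other gene pairs separate the groups was not counted. Among single tested genes, the groups did not overlap in 51.4%.

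**Figure D3:**
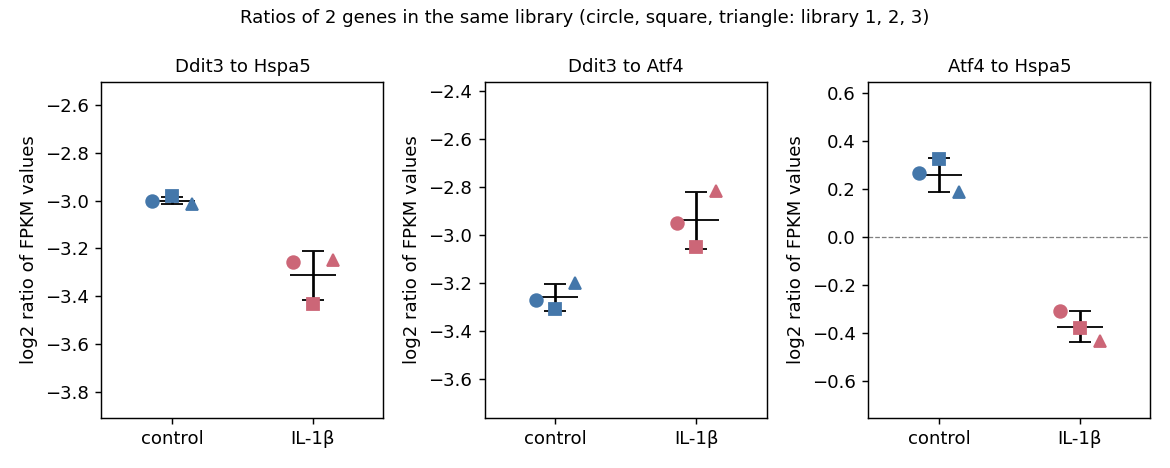
Log2 ratio of the FPKM values of 2 genes in the same library, for Ddit3 to Hspa5, Ddit3 to Atf4 and Atf4 to Hspa5, with each library as a point, the mean and SD of each group, and y axes of equal span. The groups do not overlap in any panel, and how often this holds for other gene pairs was not counted. Atf4 to Hspa5 passes from above 0 (dashed line, equal levels per length) in the control group to below 0 in the IL−1β group.

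Among the other 12405 tested genes, the gene whose log2 values over the 6 libraries followed those of Hspa5 most closely was ENSRNOG00000008767 (Pearson's r = 0.9991). It rose from 4.72 ± 0.08 to 6.66 ± 0.24 FPKM (SD, n = 3 each, log2 fold change 0.43, limma adjusted p = 0.0018). For Atf4 it was ENSRNOG00000011057 (r = 0.998, log2 fold change −0.14, limma adjusted p = 0.061), and for Ddit3 it was ENSRNOG00000059624 (r = 0.986, log2 fold change −0.10, limma adjusted p = 0.68). An r over 0.95 was found for 1178 genes with Hspa5, 208 with Atf4 and 10 with Ddit3. These correlations are descriptions over 6 points that share their libraries and depth, and they include the difference between the groups.

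Other genes of the unfolded protein response (ER chaperones, ER-associated degradation, sensors, and targets of ATF4 and CHOP) and the markers of tenocytes and of other cell types were listed for counting, but 0 of the 19133 identifiers could be paired with a symbol through the tables used here. These lists were therefore not analysed here, and the labelled cell type was not checked against its markers.

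**Figure D4:**
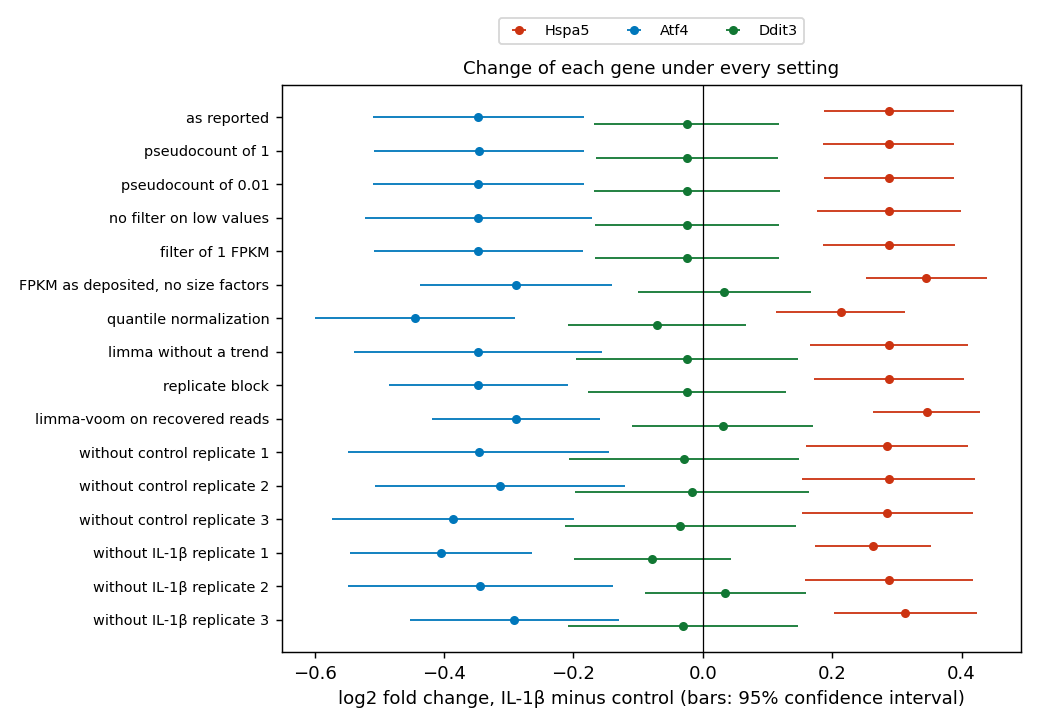
Log2 fold change with IL−1β and its 95% confidence interval for Hspa5, Atf4 and Ddit3 as reported and under 15 other settings, 1 setting per row. Hspa5 stays between 0.21 and 0.35 and Atf4 between −0.44 and −0.29, with intervals that do not reach 0, whereas the intervals of Ddit3 include 0 in every row.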

How the data were processed

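RNA was measured in 3 control and 3 IL−1β libraries, grouped by their labels. The authors deposited FPKM values for 19133 genes by Ensembl identifier, 1 column per library. The submitters' processing notes name HISAT2 and featureCounts, and versions, genome build, annotation and strand setting are not given in the sources used here. The symbols of the 3 genes were supplied with their identifiers and were not checked against an annotation. The genes, lists and tests were chosen with earlier results of these data known.

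The steps of the low values gave back whole reads (tolerance 0.01 read, Python 3.11.15, numpy 2.4.6, pandas 2.3.3) and the procedure was tested on simulated data. Counting errors cover counting alone, and the study's methods mention no molecular identifiers. The groups were compared with limma 3.58.1 under R 4.3.3 (intensity trend, two-sided) on log2 of FPKM divided by median-of-ratios size factors plus a pseudocount of 0.1, for genes that reached 0.5 FPKM in 3 or more of the 6 libraries, with Benjamini-Hochberg adjustment over all tested genes. The study's DESeq2 test takes read counts and was not run on FPKM. Its thresholds were kept (adjusted p under 0.05, absolute log2 fold change over 1). Within-library ratios were compared with exact permutation tests (scipy 1.17.1). The genes named are the 3 ER stress genes and, for each, the tested gene with the highest Pearson correlation. The alternatives were other pseudocounts (1 and 0.01), filters (none and 1 FPKM) and scalings, no trend, a replicate block, limma-voom on the recovered reads, and each library left out in turn. Figures were drawn with matplotlib 3.10.9.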

Additional observations from a re-analysis of the deposited data

How the results depend on the processing

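Hspa5 stayed higher and Atf4 lower with an adjusted p under 0.05 in limma under each of the 15 alternatives, with log2 fold changes of 0.21 to 0.35 for Hspa5 (adjusted p = 7.8e-05 to 0.01) and −0.44 to −0.29 for Atf4 (adjusted p = 0.0016 to 0.028). Ddit3 did not pass under any of them (adjusted p = 0.27 to 0.9). Its log2 fold change of −0.02 turned to 0.03 with the FPKM values as deposited (0.033), with limma-voom on the recovered reads (0.031) and without IL−1β replicate 2 (0.035). The cause was not tested for limma-voom, which changes the input, the weights and the scaling together. With 1 library left out at a time, the log2 fold changes ranged from 0.26 to 0.31 for Hspa5, from −0.40 to −0.29 for Atf4 and from −0.078 to 0.035 for Ddit3. None of the 3 genes passed both thresholds under any alternative. The number of all tested genes past both thresholds was 1078 (8.69%), 697 with a pseudocount of 1 (5.62%), and between 933 and 1336 under the others. The ends of this range came from other filters, which change the number of tested genes. They were 933 of 11469 (8.13%) with the filter of 1 FPKM and 1336 of 19133 (6.98%) with no filter. The cause of these differences was not tested. The 3 within-library ratios kept their direction under the 8 alternatives run for each.

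Libraries of the 2 groups share the numbers 1 to 3. The correlations of their deviations were 0.094, 0.021 and 0.034 for the numbers 1, 2 and 3, against −0.087 to 0.061 for libraries of different numbers. The numbers were not taken to pair the libraries, and these values do not settle whether they do. With the replicate block, the log2 fold changes were unchanged by construction (0.29, −0.35 and −0.02), the adjusted p was 0.0072 for Hspa5, 0.007 for Atf4 and 0.78 for Ddit3, and 1080 genes passed both thresholds. As a hint from the data only, 4 of the 6 libraries correlated best with their own number. For Atf4 the coefficients of variation (at least 4.84%) were above the counting error (at most 0.594%). Among the controls, those of Hspa5 after scaling and of Ddit3 were below it.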
